A study of Mus musculus with 6 samples.

Results

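The 9 genes described here encode parts of the pathway that runs from PI3K through AKT and mTOR to the FOXO transcription factors, as measured in T follicular helper (Tfh) cells, which assist B cells of the germinal center. They are *Pik3cd*, *Pik3r1*, *Inpp5d*, *Akt1*, *Mtor*, *Rptor*, *Rictor*, *Foxo1* and *Foxo3*, taken from the deposited table by symbol and not by their measured values. All 9 were found among the 14744 genes of the table, and 9 of 9 were among the 11296 genes tested, which had at least 10 normalized counts in at least 3 libraries. PI3K, switched on in T cells by the antigen receptor and by the costimulators CD28 and ICOS, makes a membrane lipid that recruits the kinase AKT. AKT in turn activates the growth complex mTORC1 and phosphorylates FOXO factors, which then leave the nucleus. In CD4+ T cells, signals from ICOS through the delta isoform of PI3K are needed for Tfh cells to form, and FOXO1 restrains their differentiation.

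The study deleted *Bach2*, the gene of a transcriptional repressor, in T cells and compared Tfh cells of such mice with those of WT mice. The strain is C57BL/6 by the labels, and the methods of the study name C57BL/6J. The WT group is mice designated WT, a name the study gives to littermates carrying Cd4-Cre alone. The other group has the genotype Bach2fl/flCd4-cre, called Bach2-cKO here, in which Cre is driven by *Cd4* and so acts in T cells in general and not in Tfh cells alone. Mice were 2 to 3 months old, and each sample held 10000 to 30000 cells from the mesenteric lymph nodes, sorted as B220-CD4+CD44+CXCR5+PD-1+. RNA was sequenced after cDNA amplification in 3 samples of each group. Nothing in the sources used here says which mouse each sample came from or whether mice were pooled, so p-values measure the spread between these samples, which may be technical. Phosphorylation, by which these proteins are mostly controlled, was not measured.

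The values are read counts per gene divided by a size factor of the library, called normalized counts. They summed to 7809702, 7387316 and 8135325 in WT replicates 1, 2 and 3 and to 7456435, 7362290 and 7361229 in the libraries labelled Bach2-cKO. In each library 100% of the values were whole multiples of 1 step, at a tolerance of 0.01. With a step taken as 1 read, the libraries held 7737531, 6585742 and 7823717 reads in WT and 5045131, 10987752 and 7197242 reads in the other group. WT replicate 1 stood apart, with 11648 genes detected above 0, while the other 5 libraries had 13111 to 13567.

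*Bach2*, the gene that the study deleted, was looked at first. It had 233, 222 and 105 normalized counts in WT and 399, 763 and 591 in the libraries labelled Bach2-cKO, higher in each of the latter than in each of the former. The log2 fold change of *Bach2* was 1.68 (SE 0.37, adjusted p = 0.141 in limma, from 0.000186 to 0.501 over all settings), which goes against the label of a deletion. Reads on any exon of the gene enter its count, also reads from exons that the deletion leaves. The group is therefore called the libraries labelled Bach2-cKO, and each direction below is a direction between libraries with these labels. The cell type was checked with 8 T and Tfh cell markers, all above 0 in every library, among them *Cd4* at 2407 to 4131, *Cxcr5* at 1271 to 2207, *Pdcd1* at 1462 to 2708 and *Bcl6* at 342 to 818 normalized counts. At an unadjusted limma p under 0.05 stood 4 of the 8, against 20.4% of all genes tested, each without overlap between groups, with *Cd4* (log2 fold change 0.49) and *Bcl6* (0.74) higher and *Cd3e* (-1.02) and *Icos* (-1.03) lower in the libraries labelled Bach2-cKO. *Cd3e*, the gene of a chain of the T cell receptor complex, was at 10623, 9648 and 11924 normalized counts in WT and at 4534, 5238 and 6140 in the other group.

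Markers of other cells were present as well, and the marker sums overlapped between groups. The 8 myeloid markers, led by *Cst3* over the 6 libraries together and by *Lyz2* in WT replicates 2 and 3, summed to 6606, 16226 and 9049 normalized counts in WT and to 7705, 14876 and 5489 in the libraries labelled Bach2-cKO, with *Itgam* at 0 in WT replicate 1. The 8 B cell markers, led by *Cd79b*, summed to 206, 731 and 494 and to 211, 257 and 273. *Cd8a* and *Cd8b1* together, of which *Cd8b1* was the more abundant, came to 176, 786 and 552 and to 361, 332 and 413. The 4 Treg markers, led by *Ikzf2*, summed to 5030, 5799 and 7052 and to 6308, 5043 and 4267. Of these single markers *Ms4a1*, *Cd68* and *Foxp3* had an unadjusted limma p under 0.05, all lower in the libraries labelled Bach2-cKO, with log2 fold changes of -2.83, -0.96 and -1.76. *Foxp3* was at 222, 315 and 344 normalized counts in WT and at 47.3, 140 and 91.0 in the other group, without overlap. Their part in the results was not tested, and in bulk RNA fewer cells of a type and less RNA per cell cannot be told apart.

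The 2 groups were compared by limma, on log2(normalized count + 1) and over all 11296 genes, a scale on which the change of low genes is understated. SE is the standard error and CI the confidence interval of the log2 fold change. A gene was called when its adjusted p was under 0.01 and its change over 2-fold, the thresholds of the study. By that rule 0 of the 9 genes were called, where 0.0% of all genes tested were called. At an unadjusted limma p under 0.05 stood 3 of the 9, *Foxo3*, *Inpp5d* and *Pik3cd*, all higher in the libraries labelled Bach2-cKO, where 10.1% of all genes tested were higher at that level, 10.2% lower and 20.4% either. The log2 fold change was above 0 for 8 of the 9 genes, against 54.8% of all genes tested, and *Rictor* was the exception. Only *Foxo3* was higher in every library labelled Bach2-cKO than in every WT library, which 14.6% of genes were, and only *Rictor* was lower in every one, which 12.2% were.

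**Figure D1:**
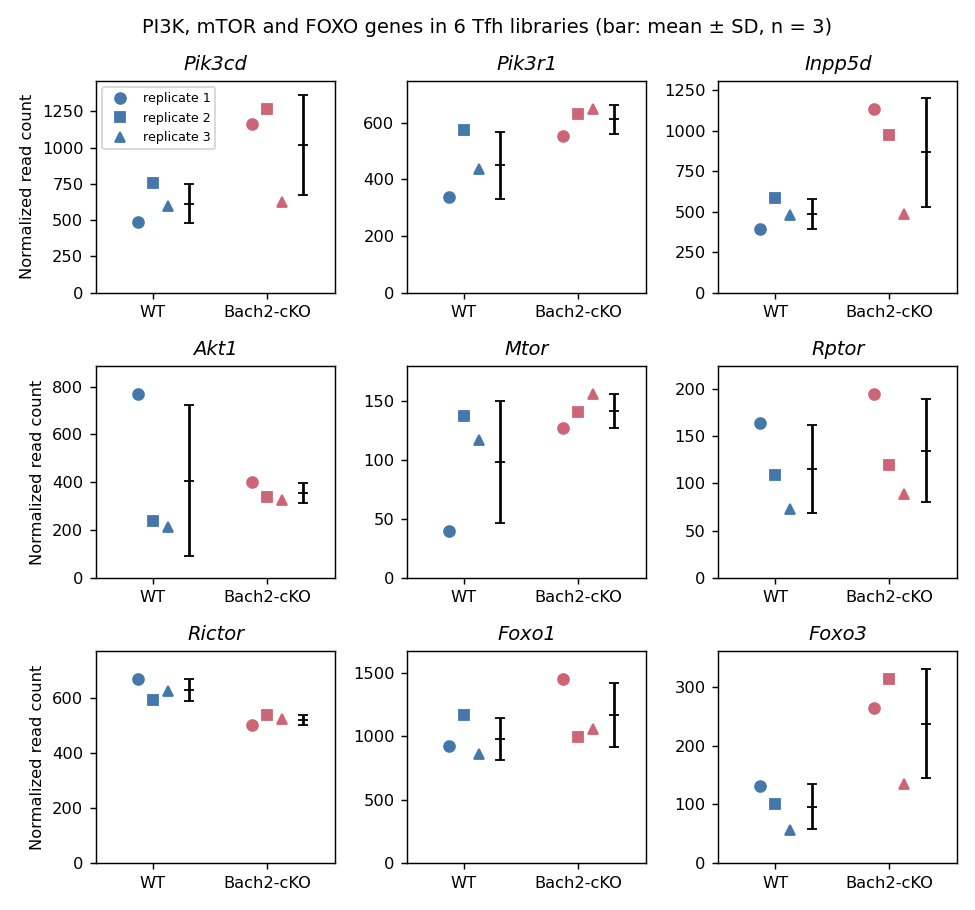
Normalized read counts (y axes, each from 0) of the 9 genes in the 3 WT libraries (blue) and the 3 libraries labelled Bach2-cKO (red), with marker shapes for the replicate number and black bars for the mean ± SD (n = 3). *Foxo3* and *Rictor* are the 2 genes whose groups do not overlap, and single WT libraries stand far from the other 2 for *Akt1* and *Mtor*.

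The catalytic subunit p110 delta, encoded by *Pik3cd*, is the main class I PI3K of lymphocytes. *Pik3cd* lies on chromosome 4 of GRCm38 from 149649168 to 149702571, on the minus strand. It was at 490, 755 and 597 normalized counts in WT replicates 1, 2 and 3 and at 1163, 1268 and 627 in the libraries labelled Bach2-cKO. Replicates 1 and 2 labelled Bach2-cKO were above all WT libraries, while replicate 3 lay within the WT range, so the groups overlapped. The mean went from 614 ± 133 to 1020 ± 344 (SD, n = 3 each), with a log2 fold change of 0.69 (SE 0.30, 95% CI 0.02 to 1.35, adjusted p = 0.232 in limma). Once a smooth trend in GC content and transcript length had been taken off each library, 0.10 of this difference was left.

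*Pik3r1*, which encodes the regulatory subunit p85 alpha that stabilizes p110 and holds it inactive until a receptor is engaged, lies on chromosome 13 from 101680563 to 101768217, on the minus strand. Its normalized counts were 339, 574 and 437 in WT and 553, 632 and 649 in the libraries labelled Bach2-cKO. WT replicate 2 was above replicate 1 labelled Bach2-cKO, and the 3 libraries labelled Bach2-cKO were closer to each other than the WT libraries were. From 450 ± 118 to 611 ± 51.5 (SD, n = 3 each), the log2 fold change was 0.47 (SE 0.25, 95% CI -0.09 to 1.03, adjusted p = 0.306 in limma), not separated from 0, and 0.22 once the length and GC trend was removed.

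The list of PI3K subunits has 10 genes, *Pik3cd* and *Pik3r1* among them, and includes *Pik3ap1*, the gene of an adaptor and not of a subunit. Of these, 8 were tested, 0 were called and 8 had a log2 fold change above 0, with *Pik3r3* and *Pik3ap1* too low to test. The median log2 fold change of the 8 was 0.54, against 0.08 for all genes tested, and 0.16 with the trend removed, against 0.0967. It was 0.35 without WT replicate 1 and 0.89 without replicate 3 labelled Bach2-cKO. *Pik3r2*, the gene of the regulatory subunit p85 beta, was at 27.3, 32.5 and 40.6 normalized counts in WT and at 99.0, 97.2 and 72.6 in the libraries labelled Bach2-cKO. These low values did not overlap between groups, and the log2 fold change was 1.40 (SE 0.48, adjusted p = 0.168 in limma), or 0.93 with the trend removed. *Pik3cg*, the gene of p110 gamma, had a log2 fold change of 0.31, *Pik3cb*, of p110 beta, had 0.61, and *Pik3r5*, the gene of a partner of p110 gamma, had 0.45, each with overlapping groups. Dropping 1 library at a time gave 0.0392 to 1.16 for *Pik3cb* and 0.15 to 1.001 for *Pik3r5*. With the trend removed *Pik3cg* was at 0.0594 and *Pik3cb* at 0.34, and the sign turned for *Pik3r5* (-0.0378) and for *Pik3ca*, the gene of p110 alpha, from 0.08 to -0.0973, the latter named after its values were seen and also below 0 in DESeq2 on 5 libraries (-0.00810).

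The costimulatory receptor genes *Icos* and *Cd28*, whose products recruit PI3K, had lower values in the libraries labelled Bach2-cKO. *Icos* was at 2547, 4079 and 4953 normalized counts in WT and at 1675, 1440 and 2511 in the libraries labelled Bach2-cKO. Every library labelled Bach2-cKO was below every WT library, by a narrow margin for its replicate 3 against WT replicate 1. The log2 fold change of *Icos* was -1.03 (SE 0.29, adjusted p = 0.146 in limma). *Cd28* was at 1206, 1143 and 1372 in WT and at 585, 529 and 1081 in the other group, likewise without overlap, with a log2 fold change of -0.83 (SE 0.28, adjusted p = 0.164 in limma). Removing the length and GC trend left -0.84 for *Icos* and -0.81 for *Cd28*. The other 2 of the 8 listed input genes named by the rule, the adaptor genes *Irs2* and *Gab2*, had log2 fold changes of 1.87 and 1.99 from means of 13.6 and 4.72 normalized counts in WT, near the lower limit of what was tested. Of the 8 genes, 0 were called, 4 were above and 4 below 0, and the median was 0.15, or 0.00467 with the trend removed. The sign of this median turned without WT replicate 1 (-0.12), replicate 3 (-0.12) or replicate 2 (-0.0407) labelled Bach2-cKO.

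*Inpp5d* encodes SHIP-1, the phosphatase of blood cells that removes a phosphate from the PI3K product. It lies on chromosome 1 from 87620312 to 87720507, on the plus strand. Its normalized counts were 396, 582 and 478 in the WT libraries and 1135, 975 and 486 in the libraries labelled Bach2-cKO. Replicates 1 and 2 labelled Bach2-cKO were again far above the WT range and replicate 3 was inside it. The means were 485 ± 93.5 and 865 ± 338 (SD, n = 3 each), a log2 fold change of 0.76 (SE 0.32, 95% CI 0.04 to 1.48, adjusted p = 0.227 in limma). Without replicate 3 labelled Bach2-cKO the log2 fold change was 1.13 (adjusted p = 0.0447 in limma, from 0.00231 to 0.608 over all settings), and once the length and GC trend was removed it was 0.35. The kinase gene *Pik3cd* and the phosphatase gene *Inpp5d* had nearly the same profile over the 6 libraries, with a Pearson r of 0.98 between their log2 values, given as a description of libraries that share their depth and length trend. Both genes are also used by B and myeloid cells, whose marker sums overlapped between groups as given above. *Adgre1*, a myeloid marker, was at 74.7, 111 and 79.0 normalized counts in WT and at 198, 224 and 68.5 in the libraries labelled Bach2-cKO. Like the 2 genes, it was above all WT libraries in replicates 1 and 2 labelled Bach2-cKO and not in replicate 3. Its log2 fold change was 0.73, that of *Csf1r* 1.62 and that of *Fcer1g* 0.46, each with overlapping groups. For *Csf1r*, WT replicate 1 was at 14.1 normalized counts, against 212 and 152 in WT replicates 2 and 3. Of the 7 myeloid markers tested, 4 were above and 3 below 0, the latter being *Cd68* (-0.96), *Lyz2* (-0.79) and *Cst3* (-0.11). Their part in the 2 genes was not tested.

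The start region of *Inpp5d* at chr1:87620062-87620361 (plus strand, RefSeq on GRCm38.p6) is shown. It holds fewer CpG dinucleotides than those of *Rictor* and *Foxo3*, the 2 genes whose groups did not overlap. It runs from 250 bases before to 50 bases after the transcription start, with each CpG in capitals.
Inpp5d: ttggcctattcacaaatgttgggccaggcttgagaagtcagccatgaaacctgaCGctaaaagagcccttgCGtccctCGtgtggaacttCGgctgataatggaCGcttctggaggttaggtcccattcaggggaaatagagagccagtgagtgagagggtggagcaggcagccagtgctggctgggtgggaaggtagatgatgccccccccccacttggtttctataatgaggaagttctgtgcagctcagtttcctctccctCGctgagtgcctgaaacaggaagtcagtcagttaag
It holds 6 CpG at a GC content of 53.7%, where the median over all 32851 promoters of the RefSeq table is 7 CpG and 52.7%. Its CpG count is thus near that median and not particular to *Inpp5d*. Promoters of *Pik3cd* with 6 and 4 CpG and a promoter of *Pik3r1* with 6 held no more.

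Among the 14 listed brakes on PI3K and AKT, *Inpp5d* included, 0 were called and 8 were above 0, with a median log2 fold change of 0.11, or -0.08 with the trend removed and 0.0384 to 0.33 when 1 library was dropped at a time. *Ddit4*, which encodes REDD1, an inhibitor of mTORC1 induced by stress and glucocorticoids, was at 38.4, 70.7 and 70.7 normalized counts in WT and at 396, 223 and 151 in the libraries labelled Bach2-cKO. The lowest of the latter was above 2 times the highest WT value. Its log2 fold change was 2.02 (SE 0.46, adjusted p = 0.141 in limma), and 2.12 with the trend removed. Of the other brakes named by the rule, the lipid phosphatase genes *Inpp4a* and *Inpp4b* had log2 fold changes of 0.75 and 0.32 and the adaptor gene *Dok2* had 0.67, each with overlapping groups. With the trend removed *Inpp4a* was at 0.39 and *Inpp4b* at 0.18. Without WT replicate 1 *Dok2* was at 0.18, and dropping 1 library at a time gave 0.44 to 1.12 for *Inpp4a*.

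*Akt1* encodes the kinase on which the pathway turns and lies on chromosome 12 from 112653821 to 112674884, on the minus strand. Its normalized counts were 770, 238 and 213 in WT and 402, 338 and 326 in the libraries labelled Bach2-cKO. WT replicate 1 was the highest of the 6 libraries and the other 2 WT libraries the lowest, so 1 library set the WT mean of 407 ± 315 (SD, n = 3), against 355 ± 40.8 (SD, n = 3). The mean was lower in the libraries labelled Bach2-cKO while the log2 fold change was above 0, at 0.06 (SE 0.44, 95% CI -0.92 to 1.04, adjusted p = 0.951 in limma). It was 0.65 without WT replicate 1, -0.27 without WT replicate 3, -0.20 without WT replicate 2 and -0.03 without replicate 1 labelled Bach2-cKO, so no direction can be given.

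The 13 RefSeq promoters of the 9 genes were searched for the FOXO motif TGTTTAC on both strands (reverse complement GTAAACA), since FOXO factors lie at the end of the pathway. The motif is in 3.65% of all 32851 promoters and in 1 of these 13, the upstream promoter of *Akt1* at chr12:112674835-112675134 (minus strand, GRCm38.p6), where it begins 161 bases before the start and is in capitals.
Akt1: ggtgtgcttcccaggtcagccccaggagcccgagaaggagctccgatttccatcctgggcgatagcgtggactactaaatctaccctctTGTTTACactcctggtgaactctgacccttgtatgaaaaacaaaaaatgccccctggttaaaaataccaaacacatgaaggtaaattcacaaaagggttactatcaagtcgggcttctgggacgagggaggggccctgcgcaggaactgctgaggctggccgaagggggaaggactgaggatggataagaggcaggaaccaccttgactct
The AP-1 core TGAGTCA (reverse complement TGACTCA), which is also the core of sites that BACH factors bind, is in 5.20% of all promoters and in 0 of the 13. A match is a run of letters and no measured binding, and no match says only that these letters are not in this window.

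The genes around AKT differed among themselves. *Pdpk1*, whose product phosphorylates AKT, was at 333, 439 and 390 normalized counts in WT and at 591, 638 and 573 in the libraries labelled Bach2-cKO, a log2 fold change of 0.64 (adjusted p = 0.173 in limma). *Gsk3b*, the gene of a kinase that AKT inhibits, was at 223, 497 and 434 and at 746, 667 and 765, with 0.99 (adjusted p = 0.155 in limma). *Rheb*, the gene of the small GTPase that switches on mTORC1, was at 1932, 1609 and 1961 and at 937, 1216 and 1270, with -0.69 (adjusted p = 0.151 in limma). The groups did not overlap for any of the 3, which were named for their small p. Without overlap, 3 of the 9 listed genes were higher and 2 lower, against 14.6% and 12.2% of all genes tested. With the trend removed, the log2 fold changes were 0.35 for *Pdpk1*, 0.68 for *Gsk3b* and -0.72 for *Rheb*. *Gsk3a* had 0.80 with overlapping groups. Of the 9 genes of AKT and its partners, 0 were called, 5 were above and 4 below 0, and the median was 0.06, or -0.03 with the trend removed, 0.45 without WT replicate 1 and -0.27 without WT replicate 3.

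*Mtor* encodes the kinase shared by mTORC1 and mTORC2 and lies on chromosome 4 from 148448611 to 148557683, on the plus strand, where *Angptl7* overlaps it on the other strand. It was at 39.4, 138 and 118 normalized counts in WT and at 127, 141 and 156 in the libraries labelled Bach2-cKO. WT replicate 1 was alone at the low end, at 39 reads if a step is 1 read, where counting error is not small, and the other 5 libraries lay close together. From 98.3 ± 52.0 to 142 ± 14.7 (SD, n = 3 each), the log2 fold change was 0.70 (SE 0.49, 95% CI -0.39 to 1.80, adjusted p = 0.414 in limma). Without WT replicate 1 it was 0.15 and once the length and GC trend was removed 0.12.

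*Rptor*, the gene of Raptor, the subunit that defines mTORC1 and holds its substrates, lies on chromosome 11 from 119602905 to 119899576, on the plus strand, with *Rptoros* on the other strand. Normalized counts were 165, 109 and 72.8 in WT and 195, 120 and 89.0 in the libraries labelled Bach2-cKO. Both groups spread over the same range, from 115 ± 46.2 to 135 ± 54.6 (SD, n = 3 each), and the log2 fold change was 0.22 (SE 0.45, adjusted p = 0.796 in limma). It was -0.07 without WT replicate 3, -0.0802 without replicate 1 labelled Bach2-cKO and -0.43 with the trend removed, so the direction was not settled.

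*Rictor* encodes the subunit that defines mTORC2, the complex that phosphorylates AKT itself. It lies on chromosome 15 from 6708379 to 6800401, on the plus strand. Its normalized counts were 668, 591 and 625 in WT and 501, 536 and 522 in the libraries labelled Bach2-cKO. Both groups were tight and did not overlap, with means of 628 ± 38.6 (SD, n = 3) and 520 ± 17.6 (SD, n = 3), a ratio of 0.827. This is a small difference, with a log2 fold change of -0.27 (SE 0.21, 95% CI -0.73 to 0.19, adjusted p = 0.448 in limma), and the test, which takes its error in part from genes of like abundance, did not separate it from 0. *Rictor* has the longest transcript of the 9 genes, 9312 bases, and its log2 fold change was -0.48 once the length and GC trend was removed. Dropping 1 library at a time gave -0.31 to -0.23. Its promoter at chr15:6708131-6708430 (plus strand, RefSeq GRCm38.p6), again with CpG in capitals, has the most CpG of the 13.
Rictor: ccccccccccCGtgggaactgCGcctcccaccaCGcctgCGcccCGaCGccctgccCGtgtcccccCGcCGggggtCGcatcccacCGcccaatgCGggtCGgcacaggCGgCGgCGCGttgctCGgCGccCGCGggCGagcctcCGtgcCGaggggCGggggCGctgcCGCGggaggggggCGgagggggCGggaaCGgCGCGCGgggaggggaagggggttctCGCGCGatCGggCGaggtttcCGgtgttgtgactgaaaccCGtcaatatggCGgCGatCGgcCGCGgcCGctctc
There are 47 CpG in it, at a GC content of 78.3%.

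**Figure D2:**
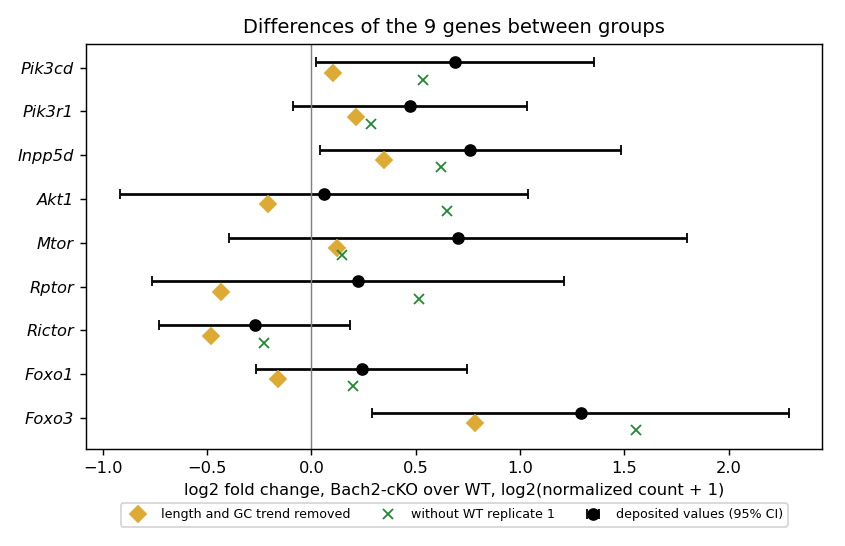
Log2 fold change (x axis, libraries labelled Bach2-cKO over WT, on the log2(normalized count + 1) scale) of the 9 genes in limma, with its 95% confidence interval (black), without WT replicate 1 (green crosses) and once the length and GC trend was removed (yellow diamonds). *Foxo3* lies above 0 in all 3 and *Rictor* below, and 3 genes, *Akt1*, *Rptor* and *Foxo1*, go below 0 once the trend is removed.

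Of the 11 listed genes of the mTOR complexes, 9 were tested, *Mtor*, *Rptor* and *Rictor* among them, with *Deptor* and *Prr5* too low. At an unadjusted p under 0.05 stood 0 of them, and the median log2 fold change was 0.19, or -0.37 with the trend removed. It was also below 0 without WT replicate 3 (-0.11) and without replicate 1 (-0.0802) or 3 (-0.0203) labelled Bach2-cKO. *Akt1s1*, the gene of the mTORC1 inhibitor PRAS40, had 0.64, *Telo2*, of a chaperone of mTOR, 0.53, *Mapkap1*, of a subunit of mTORC2, 0.19 and *Prr5l*, of a further mTORC2 partner, -2.27. WT replicate 1 was the highest library for *Prr5l*, at 125 normalized counts against 1.48 to 22.9 in the other 5, and for *Telo2*, at 106 against 14.6 to 74.7. Without it the log2 fold changes were -1.43 for *Prr5l* and 1.28 for *Telo2*, with the trend removed *Telo2* was at 0.15, and dropping 1 library at a time gave -2.96 to -1.42 for *Prr5l*.

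The 25 listed genes of amino acid sensing, which place mTORC1 on the lysosome, were divided, with 13 above and 12 below 0 and a median of 0.11, or 0.07 with the trend removed, 0.000492 without WT replicate 3 and -0.0196 without replicate 3 labelled Bach2-cKO. *Lamtor1*, whose product anchors the Ragulator complex to the lysosome, was at 1781, 1560 and 1956 normalized counts in WT and at 786, 921 and 1487 in the libraries labelled Bach2-cKO. *Nprl2*, a subunit gene of the GATOR1 complex, which inhibits mTORC1, was at 500, 282 and 340 and at 197, 172 and 240. The groups did not overlap for either, with log2 fold changes of -0.78 and -0.85 (adjusted p = 0.161 and 0.178 in limma). *Sec13*, a gene of GATOR2, had -0.82. *Wdr59*, of GATOR2, and *Sesn3*, whose product inhibits GATOR2, were also at an unadjusted p under 0.05, at 1.14 and 0.79, and were named after their values were seen. Called were 0 of the 25. *Lamtor1*, *Nprl2* and *Sec13* have transcripts of 1936, 1736 and 1599 bases, and with the trend removed their log2 fold changes were -0.37, -0.53 and -0.36.

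Downstream of mTORC1, 0 of 13 listed substrate and AMPK genes and 0 of 9 metabolic genes were called. *Eif4ebp1*, the gene of a translation inhibitor that mTORC1 phosphorylates, was at 386, 414 and 473 normalized counts in WT and at 245, 265 and 339 in the libraries labelled Bach2-cKO. These did not overlap, and the log2 fold change was -0.59 (adjusted p = 0.227 in limma), or -0.18 with the trend removed. *Stk11*, the gene of the kinase LKB1, had 0.85 without overlap (0.33 with the trend removed), and *Tfeb*, of a lysosomal regulator, and *Prkab2*, of an AMPK subunit, had 1.14 and 1.57 with overlap. The median was 0.25 for the 13 genes, 0.08 with the trend removed and 0.15 to 0.39 when 1 library was dropped at a time.

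Of the metabolic genes, *Srebf2* and *Srebf1*, whose products drive sterol and fatty acid synthesis, and *Slc2a1*, the gene of the glucose transporter GLUT1, were higher in every library labelled Bach2-cKO than in every WT library. These 3 of 9 genes were named for their small p, and 14.6% of all genes tested were higher in this way. *Srebf2* was at 343, 273 and 288 normalized counts in WT and at 630, 550 and 483 in the other group, a log2 fold change of 0.88 (SE 0.24, adjusted p = 0.144 in limma). *Srebf1* had 0.96 (adjusted p = 0.184 in limma) and *Slc2a1* 0.97 (adjusted p = 0.218 in limma). With the trend removed, the log2 fold changes of *Srebf2*, *Srebf1* and *Slc2a1* were 0.24, 0.38 and 0.80. *Ldha*, the gene of a lactate dehydrogenase subunit, went from 9410 ± 4711 to 5551 ± 2118 (SD, n = 3 each), with overlap and a log2 fold change of -0.72. Without WT replicate 1, at 14835 against 6348 and 7048 in the other 2 WT libraries, it was -0.33, and with the trend removed -0.34. The 9 genes had a median of 0.11, and -0.25 with the trend removed, 0.48 without WT replicate 1, -0.10 without WT replicate 3 and 0.0129 without replicate 3 labelled Bach2-cKO.

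*Foxo1* encodes the FOXO factor best known in T cells, which maintains naive cells and genes of lymph node homing. It lies on chromosome 3 from 52268336 to 52353221, on the plus strand, with *Gm20402* on the other strand. It was at 921, 1171 and 857 normalized counts in WT and at 1454, 992 and 1060 in the libraries labelled Bach2-cKO. Only replicate 1 labelled Bach2-cKO stood above the WT range. The means of 983 ± 166 and 1169 ± 250 (SD, n = 3 each) gave a log2 fold change of 0.24 (SE 0.23, 95% CI -0.26 to 0.75, adjusted p = 0.544 in limma), and -0.16 with the trend removed, within the spread between replicates.

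*Foxo3*, the gene of a related factor that limits T cell survival and expansion, showed the widest difference of the 9. It lies on chromosome 10 from 42181841 to 42276755, on the minus strand. Its normalized counts were 131, 101 and 56.2 in WT and 265, 314 and 134 in the libraries labelled Bach2-cKO. The groups did not overlap, although replicate 3 labelled Bach2-cKO and WT replicate 1 were nearly equal. The mean went from 96.1 ± 37.8 to 237 ± 92.8 (SD, n = 3 each), a log2 fold change of 1.29 (SE 0.45, 95% CI 0.29 to 2.29, adjusted p = 0.172 in limma). Dropping 1 library at a time gave 0.95 to 1.66, and it was 0.78 once the length and GC trend was removed. Weights for the libraries, from 0.206 for WT replicate 1 to 5.54 for replicate 2 labelled Bach2-cKO, gave 2.06 (adjusted p = 0.000419 in limma), and *Foxo3* was then the only 1 of the 9 genes called, in a setting that called 9.99% of all genes. Over all settings the adjusted p of *Foxo3* was between 0.000419 and 0.519. *Pik3cd* and *Inpp5d* passed the threshold on p with these weights (0.00194 and 0.00231 in limma) and not that on size, each at 0.93. *Foxo4*, the remaining FOXO gene tested, had 0.83 with overlapping groups, at 38.9 ± 15.4 and 75.1 ± 42.0 normalized counts (SD, n = 3 each), and 0.43 to 1.33 when 1 library was dropped at a time.

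The promoter of *Foxo3* at chr10:42276646-42276945 (minus strand, RefSeq GRCm38.p6) is shown beside that of *Rictor*, the other gene whose groups did not overlap, with CpG in capitals.
Foxo3: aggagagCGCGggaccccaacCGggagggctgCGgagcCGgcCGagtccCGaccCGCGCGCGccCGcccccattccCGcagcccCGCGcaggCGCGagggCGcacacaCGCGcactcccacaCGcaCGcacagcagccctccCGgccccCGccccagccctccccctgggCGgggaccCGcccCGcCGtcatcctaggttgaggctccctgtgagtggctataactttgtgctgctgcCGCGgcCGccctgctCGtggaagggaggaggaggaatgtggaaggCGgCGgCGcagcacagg
With 35 CpG and a GC content of 75% it too was above the median of all promoters, while the log2 fold changes of *Foxo3* and *Rictor* were 1.29 and -0.27.

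The 12 listed targets of FOXO1 had 9 genes above and 3 below 0. Called were 0 of 12, while 5 were higher and 1 lower at an unadjusted p under 0.05, against 10.1% and 10.2% of all genes tested, and the median log2 fold change was 0.59, or 0.50 with the trend removed and 0.32 to 0.70 when 1 library was dropped at a time. *Txnip*, which limits glucose uptake, was at 759, 1158 and 863 normalized counts in WT and at 1469, 1636 and 1317 in the libraries labelled Bach2-cKO. *Ccng2*, a cyclin gene of cell cycle arrest, was at 621, 462 and 417 and at 782, 790 and 695. The groups did not overlap for either, with log2 fold changes of 0.69 and 0.61 (adjusted p = 0.158 and 0.192 in limma). *Bcl2l11*, which encodes the death factor BIM, was at 73.7, 177 and 93.6 in WT and at 281, 360 and 162 in the other group, with 1.24 (adjusted p = 0.173 in limma) and an overlap of 1 library. The other 2 higher genes, the cell cycle inhibitor gene *Cdkn1b* and *Sesn3*, had 0.84 and 0.79 without overlap and were named after their values were seen.

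The targets known for homing and survival of resting T cells lay on both sides of 0. *Ccr7*, a chemokine receptor gene of entry into lymph nodes, was at 1433, 1148 and 507 normalized counts in WT and at 273, 464 and 610 in the libraries labelled Bach2-cKO, with a log2 fold change of -1.14 (adjusted p = 0.177 in limma). *Il7r*, *Klf2* and *S1pr1* were not separated from 0 by limma without library weights, with 0.31 for *Il7r* (0.58 without replicate 3 labelled Bach2-cKO, 0.48 with the trend removed and 0.95 with library weights). *Ccr7* and *Il7r* are also among the 6 naive T cell markers, of which *Tcf7* was the most abundant, and whose sum was 11226, 12071 and 9263 in WT and 14610, 14778 and 11898 in the other group. Of these markers *Satb1* and *Tcf7* were higher and *Ccr7* lower at an unadjusted limma p under 0.05, with log2 fold changes of 1.76 and 0.50 and no overlap for *Satb1* and *Tcf7*. The part of naive cells in these values was not tested. With the trend removed, the log2 fold changes of *Txnip*, *Ccng2*, *Bcl2l11* and *Ccr7* were 0.82, 0.58, 0.98 and -0.88.

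**Figure D3:**
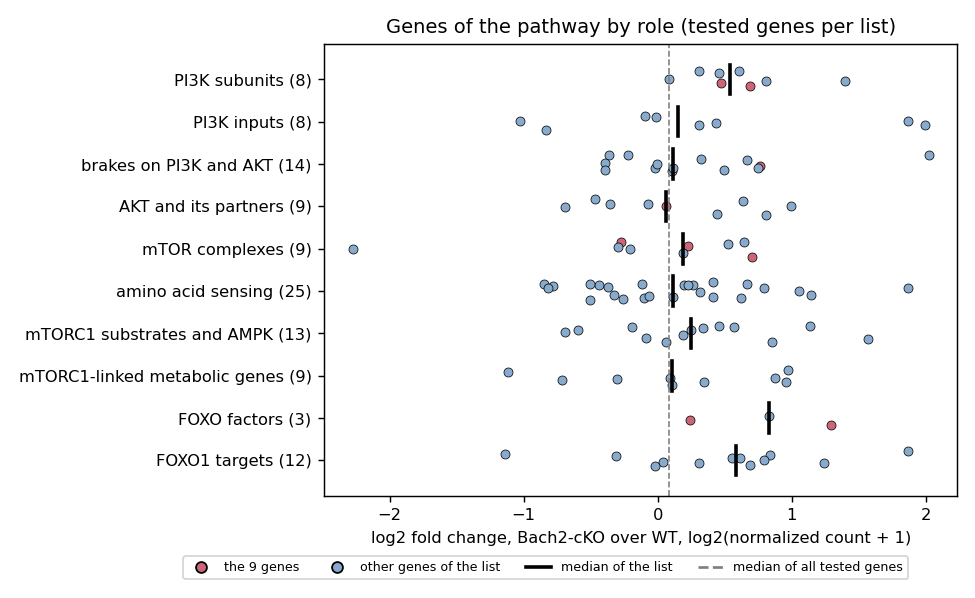
Log2 fold change (x axis, libraries labelled Bach2-cKO over WT, on the log2(normalized count + 1) scale) of each tested gene of the 10 pathway lists, the number tested in brackets, with the 9 genes in red, the other genes of the lists in blue, a black bar at the median of each list and a dashed line at the median of all genes tested, 0.08. The bars of the FOXO factors (0.83), FOXO1 targets (0.59) and PI3K subunits (0.54) lie furthest to the right, and the genes of most lists lie on both sides of 0.

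Over all lists, 98 tested genes other than the 9 had a median log2 fold change of 0.21, or 0.07 with the trend removed, and 60 were above and 38 below 0. At an unadjusted p under 0.05 stood 14 higher and 8 lower, against 10.1% and 10.2% of all genes tested. In every library labelled Bach2-cKO 18 were higher than in every WT library and 8 lower, against 14.6% and 12.2% of all genes, and limma called 0. DESeq2, run on the reads recovered from 5 libraries, without WT replicate 1, called 2 of the 98 genes, *Ddit4* higher (log2 fold change 1.82, adjusted p = 0.00563) and *Icos* lower (log2 fold change -1.30, adjusted p = 0.00176), and 0 of the 9, where it called 0.797% of all genes. Over all settings run, the adjusted p of *Ddit4* was between 0.000722 and 0.501 and that of *Icos* between 0.000159 and 0.501. In edgeR (quasi-likelihood) on those 5 libraries 0 of either set were called. The library weights called 10 of the 98, where they called 9.99% of all genes, with 8 higher (*Bcl2l11*, *Ddit4*, *Gsk3a*, *Inpp4a*, *Irs2*, *Klf2*, *Pik3r2* and *Wdr59*) and 2 lower (*Cd28* and *Icos*). *Foxo3* had a DESeq2 log2 fold change of 1.56 (adjusted p = 0.0289) and an edgeR one of 1.58 (adjusted p = 0.161). *Bach2* passed both thresholds in DESeq2 (log2 fold change 1.81, adjusted p = 0.00123) and with library weights (2.36, adjusted p = 0.000186 in limma). It did not pass them in edgeR (1.83, adjusted p = 0.148).

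Levels of different genes were compared as normalized counts per kilobase of the longest transcript. In WT, *Akt1* was at 151 ± 117, *Pik3cd* at 125 ± 27.1, *Foxo1* at 113 ± 19.2 and *Inpp5d* at 98.3 ± 18.9 per kilobase (SD, n = 3 each). These 4 overlapped in their single libraries, and the place of *Akt1* came from WT replicate 1, at 286, without which its mean was 83.8, the lowest of the 4. Next by mean came *Rictor* at 67.4 ± 4.15 and *Pik3r1* at 63.3 ± 16.6, overlapping each other. *Pik3r1* in WT replicate 2, at 80.7, was also above the lowest WT libraries of *Inpp5d* (80.1) and *Akt1* (79.2). Last came *Rptor* at 17.5 ± 7.01, *Foxo3* at 14.0 ± 5.51 and *Mtor* at 11.5 ± 6.08 per kilobase, overlapping again. In the libraries labelled Bach2-cKO the order of these levels was *Pik3cd* at 207 ± 69.9, *Inpp5d* at 175 ± 68.5, *Foxo1* at 135 ± 28.8, *Akt1* at 132 ± 15.2, *Pik3r1* at 85.9 ± 7.24, *Rictor* at 55.8 ± 1.89, *Foxo3* at 34.7 ± 13.6, *Rptor* at 20.4 ± 8.28 and *Mtor* at 16.5 ± 1.72 per kilobase. There the single libraries of *Akt1* and *Pik3r1*, of *Pik3r1* and *Rictor* and of *Rictor* and *Foxo3* did not overlap, and those of the other neighbours did.

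Among themselves the 9 genes did not move as 1 block. The median deviation of the 9 from their own 6-library means, on the log2 scale, was -0.20, -0.02 and -0.36 in WT replicates 1, 2 and 3 and 0.46, 0.29 and -0.09 in the libraries labelled Bach2-cKO. Replicate 3 labelled Bach2-cKO thus lay with the WT libraries, between WT replicates 1 and 2. Of the 9 genes, 4 had their lowest value in WT replicate 1 and 4 in WT replicate 3, while 3 had their highest in replicate 1 labelled Bach2-cKO. Without WT replicate 1, which stood apart in genes detected, the log2 fold changes were 1.55 for *Foxo3*, 0.62 for *Inpp5d*, 0.54 for *Pik3cd*, 0.52 for *Rptor*, 0.28 for *Pik3r1*, 0.20 for *Foxo1* and -0.23 for *Rictor*, besides those of *Akt1* and *Mtor* given above. Of other genes named, *Gab2* was then at 1.001, *Akt1s1* at 0.996, *Gsk3b* at 0.64, *Stk11* at 0.56, *Tfeb* at 0.52, *Cdkn1b* at 0.50, *Sesn3* at 0.38 and *Inpp4b* at 0.16. Dropping 1 library at a time gave 0.55 to 1.26 for *Gsk3a*, 1.22 to 2.66 for *Irs2*, 1.06 to 2.47 for *Prkab2*, 0.52 to 1.70 for *Tfeb*, 0.40 to 0.996 for *Akt1s1* and -1.22 to -0.54 for *Sec13*. With the length and GC trend removed, *Irs2* was at 1.22 and *Sesn3* at 0.51. The count of 3 genes at an unadjusted p under 0.05 was 4 without WT replicate 2 (22.5% of all genes), 2 without WT replicate 1 (19.2%), 3 without replicate 3 labelled Bach2-cKO (27.6%), and 0 without WT replicate 3 (16.8%) or replicate 1 (9.55%) or 2 (10.9%) labelled Bach2-cKO. By the average profile of the 9, the genes outside the lists most like it were *Atg16l2* (Pearson r 0.995 over 6 libraries), *Man2a2* (0.994) and *Adgrl1* (0.991), the highest of 7501 genes ranked. A high r is easily reached in so many genes over 6 libraries, and these are given as a description. Their transcripts are long, at 6459, 6554 and 8181 bases, against a median of 3268 for the genes tested. *Man2a2* was at 192, 219 and 154 normalized counts in WT and at 464, 407 and 249 in the libraries labelled Bach2-cKO.

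Transcript length moved with these differences. In 11269 genes with a known length, the longest transcript and the log2 fold change had a Spearman's rho of 0.320, given as a description, since genes are not independent replicates. Genes with transcripts under 1500 bases had a median log2 fold change of -0.16 (1562 genes) and those over 6000 bases one of 0.45 (1510 genes). The libraries differed in this, with a rho between a gene's deviation and its length of -0.226, -0.0518 and -0.264 in WT replicates 1, 2 and 3 and 0.326, 0.240 and -0.00877 in those labelled Bach2-cKO. Of the 9 genes, 8 have transcripts of 4921 to 9312 bases, against a median of 3268 for the genes tested, and *Akt1* has one of 2690. The median log2 fold change of the 9 was 0.47, and 0.10 with the smooth trend in length and GC content subtracted from each library, where all genes tested had 0.08 and 0.0967. At an unadjusted p under 0.05 then stood 0 of the 9, and 16.3% of all genes. *Bach2*, with a transcript of 8882 bases, was at 1.26 in that setting. The source of the trend was not tested.

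**Figure D4:**
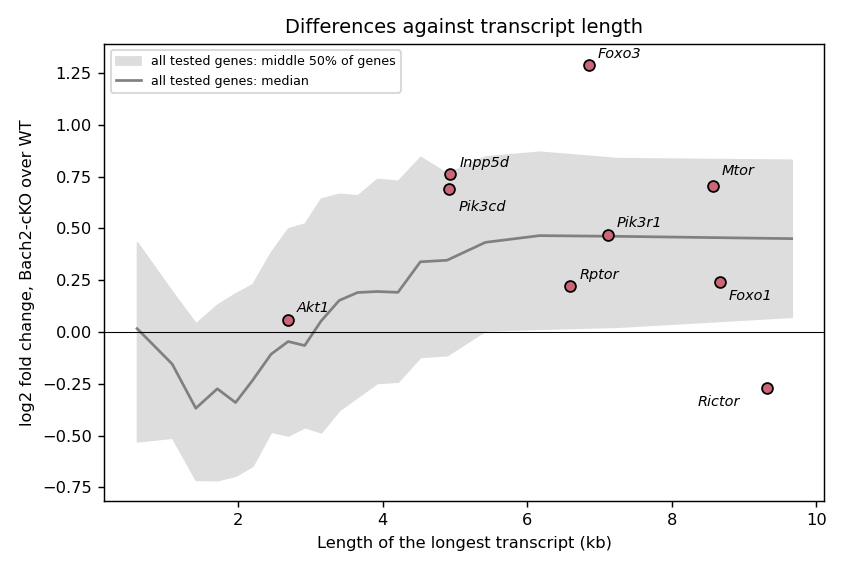
Log2 fold change (y axis, libraries labelled Bach2-cKO over WT) against the length of the longest transcript in kilobases (x axis) for the 9 genes (red), with the median (line) and the middle 50% of genes (grey band) in bins of all tested genes by length. *Foxo3* lies above the band and *Rictor* below it, and the other 7 lie within it or at its edge.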

How the data were processed

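RNA-seq of 6 libraries, 3 WT and 3 labelled Bach2-cKO, was analysed from 1 deposited table of normalized read counts, a signal that the authors made by dividing counts per gene by a size factor of each library. The methods of the study name Tophat2, HTSeq and DESeq2, while the submitters' processing notes name STAR 2.5.2b, DESeq2 1.20.0, R 3.5.1 and the builds GRCm38 and mm10, so the aligner is uncertain. The gene annotation and the use of strand in counting are not given in the sources used here, so reads of overlapping genes on either strand cannot be told apart.

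The test here was limma 3.58.1 (R 4.3.3, trended variance, 2-sided) on log2(value + 1). It covered 11296 genes, those at 10 or more in 3 or more libraries, with Benjamini-Hochberg adjustment, and a call needed an adjusted p under 0.01 and over 2-fold change. The design had assumed normalized counts and was kept. Whole reads were recovered in 5 libraries for edgeR 4.0.16 and DESeq2 1.42.0. WT replicate 1, whose step of 1.01 is too near a power of 10 for the rule on recovered reads, was left out of those tests. Recovered depth was 5045131 to 10987752 reads. PCR copies were not told apart. Transcript lengths, GC content and coordinates are of GENCODE M21 on GRCm38, where 14329 genes matched by symbol, 370 by an older symbol and 45 did not. The trend in length and GC content was fitted with mgcv 1.9.3. Procedures were tested on simulated data.

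The 9 genes and the lists (PI3K subunits, PI3K inputs, brakes on PI3K and AKT, AKT and its partners, mTOR complexes, amino acid sensing, mTORC1 substrates and AMPK, mTORC1-linked metabolic genes, FOXO factors, FOXO1 targets and cell markers) were chosen with earlier results of these data known. Other genes named are, of each pathway list, up to 4 with the smallest unadjusted p, and the 3 most like the average of the 9. *Il7r*, *Klf2*, *S1pr1* and single cell markers were named outside this rule with their values known, besides the genes so marked above. *Foxo6* was not analysed here, and single values of some listed genes are not reported here. Alternatives were other pseudocounts, filters, scalings, variance models, thresholds, library weights, the length and GC trend, a replicate block, count tests and leaving out each library.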

Additional observations from a re-analysis of the deposited data

How the results depend on the processing

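The count of genes past the thresholds was 0 higher and 0 lower with other pseudocounts, filters, scalings and variance models, the replicate block, the length and GC trend removed and edgeR on 5 libraries (2070 genes at an unadjusted p under 0.05, against 2301 in limma on 6). It was 0 to 0 when any 1 library was dropped (1058 to 3061 genes at an unadjusted p under 0.05). DESeq2 on 5 libraries called 33 higher and 57 lower (2158 at an unadjusted p under 0.05), and library weights 561 and 567. Without replicate 3 labelled Bach2-cKO, 511 genes passed an adjusted p of 0.05, of which the threshold of 0.01 left 0. The cause was not tested.

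With the length and GC trend removed, the log2 fold change turned to -0.16 for *Foxo1*, -0.43 for *Rptor*, -0.21 for *Akt1* and -0.0378 for *Pik3r5*, and the median of the 9 genes moved to 0.10. With library weights it was 2.06 for *Foxo3*, past the threshold, and -0.0898 for *Mapkap1*. The cause was not tested.

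Dropping 1 library at a time gave log2 fold changes of 0.95 to 1.66 for *Foxo3*, 0.52 to 1.13 for *Inpp5d*, 0.50 to 1.01 for *Pik3cd*, 0.28 to 0.66 for *Pik3r1*, 0.15 to 1.04 for *Mtor*, 0.07 to 0.37 for *Foxo1*, -0.0802 to 0.52 for *Rptor*, -0.31 to -0.23 for *Rictor*, -0.27 to 0.65 for *Akt1*, -0.11 to 1.28 for *Telo2* and -0.0203 to 0.33 for *Mapkap1*, and a median of the 9 of 0.45 to 0.66.

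The labels do not say whether libraries of the same replicate number are pairs. Their deviations from the group means had correlations of -0.07, 0.12 and -0.04, which cannot show whether the samples were handled together. With a replicate block the log2 fold change was 1.29 for *Foxo3* and -0.27 for *Rictor*, the smallest adjusted p over all genes was 0.219 and no call changed. Other scalings moved the median of all genes by under 0.1. At this depth, counting error is small for *Foxo1* and *Rictor* and not small for *Foxo3* in WT replicate 3 (54 reads) or *Mtor* in WT replicate 1 (39 steps).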
